A study of Mus musculus with 34 samples.

Results

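H3K4me1 peaks were compared between CTCF-WT and CTCF-KO mouse bone marrow-derived dendritic cells (BMDCs) after LPS. The members were all peaks of both broad peak lists, 89884 in CTCF-WT cells (WTLPS) and 79120 in CTCF-KO cells (KOLPS), so 169004 of the 1393623 peaks in the 30 lists of the series. A peak was called shared when at least 1 bp of it lay in a peak of the other list, and otherwise WTLPS-only or KOLPS-only. CTCF-WT cells came from CreER mice and CTCF-KO cells from CreER;CTCF fl/fl mice, both of the C57BL/6 strain and given as 8 weeks old (under the label for passages). All cultures had GM-CSF, which drives precursors to a dendritic state, for 6 days and 4-OH tamoxifen on the first day, so that the wild-type cells also carried the Cre and were exposed to the drug. LPS, the bacterial ligand of the receptor TLR4, was given at 100 ng/ml for 3 h, and the unstimulated lists of the same genotypes (WT and KO) are used where stated. The CreER is driven by the Rosa26 locus and so is not limited to dendritic cells, CD11c+ cells were selected from a mixed myeloid culture, and fewer marked cells and less mark per cell cannot be told apart. There was 1 list for each condition, so no difference between conditions has a replicate error, and all intervals are 95% Wilson or Newcombe intervals that cover counting error only.

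H3K4me1, monomethylation of lysine 4 on histone H3, is placed by the methyltransferases MLL3 and MLL4 at enhancers and on the flanks of active promoters. It marks both enhancers that carry H3K27 acetylation, the mark of active elements, and primed ones that do not. In myeloid cells the lineage factor PU.1 opens such elements, which NF-κB and other signal-dependent factors then bind upon LPS. The NF-κB subunit p65 (RelA) enters the nucleus when TLR4 signals, whereas CTCF and the cohesin ring, of which SMC1 is a subunit, hold loops between distant elements.

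Sequences from 7 regions show what the peaks of a single condition look like at the base level. The first 3 are the WTLPS-only H3K4me1 peaks with the strongest p65 summit and no KOLPS p65 peak, out of 207 p65 summits that met this rule. The next pair hold the strongest CTCF summits of 1421 in WTLPS-only peaks with no KOLPS CTCF peak, and the last pair the strongest H3K27ac summits of 140 in KOLPS-only peaks with no WTLPS H3K27ac peak. Each shows 100 bases of the plus strand of GRCm38, read from the RefSeq assembly, with the 11 bases around the summit in capitals.
p65 region 1: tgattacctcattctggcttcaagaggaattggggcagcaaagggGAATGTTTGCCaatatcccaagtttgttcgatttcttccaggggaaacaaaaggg
p65 region 2: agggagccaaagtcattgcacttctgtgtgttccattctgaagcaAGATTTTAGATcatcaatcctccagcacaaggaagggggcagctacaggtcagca
p65 region 3: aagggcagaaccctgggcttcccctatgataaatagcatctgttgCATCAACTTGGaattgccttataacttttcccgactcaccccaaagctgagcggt
CTCF region 1: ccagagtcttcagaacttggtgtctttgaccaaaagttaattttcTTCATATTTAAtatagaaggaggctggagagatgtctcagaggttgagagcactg
CTCF region 2: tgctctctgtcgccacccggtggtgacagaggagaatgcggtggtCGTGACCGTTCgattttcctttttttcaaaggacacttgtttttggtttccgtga
H3K27ac region 1: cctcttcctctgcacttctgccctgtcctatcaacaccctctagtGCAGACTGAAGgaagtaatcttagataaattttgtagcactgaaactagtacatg
H3K27ac region 2: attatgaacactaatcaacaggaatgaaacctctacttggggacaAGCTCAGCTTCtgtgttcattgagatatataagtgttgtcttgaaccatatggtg
p65 region 1, chr5:29880309-29880408, lay outside genes with Il6, which encodes the cytokine interleukin 6, as the nearest protein-coding gene at 133 kb. Its H3K4me1 peak was 1921 bp wide with a fold of 2.65, overlapped peaks of unstimulated WT and KO cells, and held H3K27ac in both WTLPS and KOLPS. p65 region 2, chr1:120524282-120524381, lay outside genes 19.3 kb from Marco, which encodes a scavenger receptor of macrophages. There the H3K4me1 peak of 855 bp was also listed in WT but not in KO, and H3K27ac was listed in WTLPS and not in KOLPS. p65 region 3, chr13:24591923-24592022, lay in an intron of Ripor2, in a peak of 4967 bp that WT and KO also held.

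CTCF region 1, chr7:4027072-4027171, lay in an intron of Lair1, which encodes an inhibitory receptor of leukocytes. CTCF region 2, chrX:169987170-169987269, lay in an intron of Mid1, a ubiquitin ligase gene that is described with the largest differences around single genes. H3K27ac region 1, chr12:104178668-104178767, lay outside genes 24.8 kb from Serpina3c, and H3K27ac region 2, chr12:115066989-115067088, lay outside genes among immunoglobulin heavy chain variable genes. Both KOLPS-only peaks were listed in unstimulated KO and not in WT.

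Both strands were searched for 4 motifs: the NF-κB consensus, the CTCF core, AGAGGAAG of PU.1 and TGANTCA of AP-1. H3K27ac region 1 held a PU.1 match and the other printed sequences held none of the motifs. In the same length of 100 bases, the NF-κB consensus stood at 11.7% of all 5465 WTLPS p65 summits, at 13.1% of the 222 in WTLPS-only peaks and at 11% of the 4604 in shared peaks, against 0.715% of WTLPS H3K27ac summits. The CTCF core stood at 23.5% of the 1750 CTCF summits in WTLPS-only peaks and at 28.4% of the 11314 in shared peaks, against 0.507% of H3K27ac summits. At the centres of H3K4me1 peaks, in 300 bases, the PU.1 letters were found in 4.91% of WTLPS-only, 5.36% of shared WTLPS and 4.16% of KOLPS-only peaks and in 4.55% of 32851 promoter windows of that length. The AP-1 letters were found in 10.6%, 10.8% and 9.58% of those peaks, against 7.81% of promoter windows. Median GC content of these windows was 42%, 42.7% and 39%, so KOLPS-only peaks were the poorest in G and C.

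The cell type was checked through H3K4me1 in windows of 50 kb to either side of the start sites of marker genes. All 9 measured dendritic and myeloid markers held the mark in all 4 lists, with a median of 53.2 kb in WTLPS and 27.5 kb in KOLPS, and 12 genes silent in blood cells had medians of 2.54 and 2.29 kb. Markers of other blood lineages lay between them, at 25.8 and 11.1 kb for 10 T cell genes, 15.5 and 6.44 kb for 9 B cell genes, 24.0 and 12 kb for 10 neutrophil genes, 3.69 and 3.92 kb for 7 mast cell and basophil genes, and 17.6 and 8.07 kb for 9 erythroid and megakaryocyte genes. Single genes of these lists differed widely. By WTLPS, the T cell genes ran from Bcl11b, at 0 in every list, to Cd3e, with 40.4 and 19.8 kb in a window it shares with other genes. The erythroid and megakaryocyte genes ran from Gata1, at 0.378 kb in WTLPS and 0 in KOLPS, to Pf4, at 54.7 and 26.7 kb. The share of other cells in the cultures was not tested.

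H3K4me1 covered 263 Mb in WTLPS and 149 Mb in KOLPS, a ratio of 0.565, although the ratio of the numbers of peaks was 0.880. Unstimulated cells gave 259 Mb in WT and 232 Mb in KO, a ratio of 0.896, so the list of CTCF-KO cells after LPS stood apart from the other 3. WTLPS covered 9.65% of the genome and KOLPS 5.45%. KOLPS peaks were narrower, with a median width of 1105 bp, against 1543 bp in WTLPS, 1435 bp in WT and 1366 bp in KO. The most frequent background coverage recovered from the peaks, which goes up with sequencing depth and fragment length, was also lowest in KOLPS, at 2.95 fragments per base against 3.6 in WT, 4.08 in WTLPS and 4 in KO. The read totals given by the study put these libraries in the same order. The background could be read from 4.68 to 6.19% of the peaks of a list. All 4 lists ended at nearly the same −log10 q, at most 1.01, but the weakest peak had a −log10 p of 2.24 in WTLPS and 2.60 in KOLPS, so the list of CTCF-KO cells ended at a stricter p. The part of depth in the smaller coverage was not tested, and with 1 list each, library and genotype cannot be told apart.

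KOLPS coverage lay almost wholly inside that of WTLPS. Of the KOLPS bases 91.1% were also covered in WTLPS, whereas 51.4% of the WTLPS bases were covered in KOLPS. Both lists together covered 135 Mb, only WTLPS 128 Mb and only KOLPS 13.3 Mb. Most of the difference lay inside shared peaks: WTLPS-only peaks held 35.9 Mb, and the other 91.8 Mb (71.9% of what KOLPS did not cover) lay in peaks that still overlapped a KOLPS peak. Within shared WTLPS peaks, 61.6 Mb lay at the outer ends, beyond the first and the last KOLPS peak, and 30.2 Mb lay between KOLPS peaks.

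**Figure D1:**
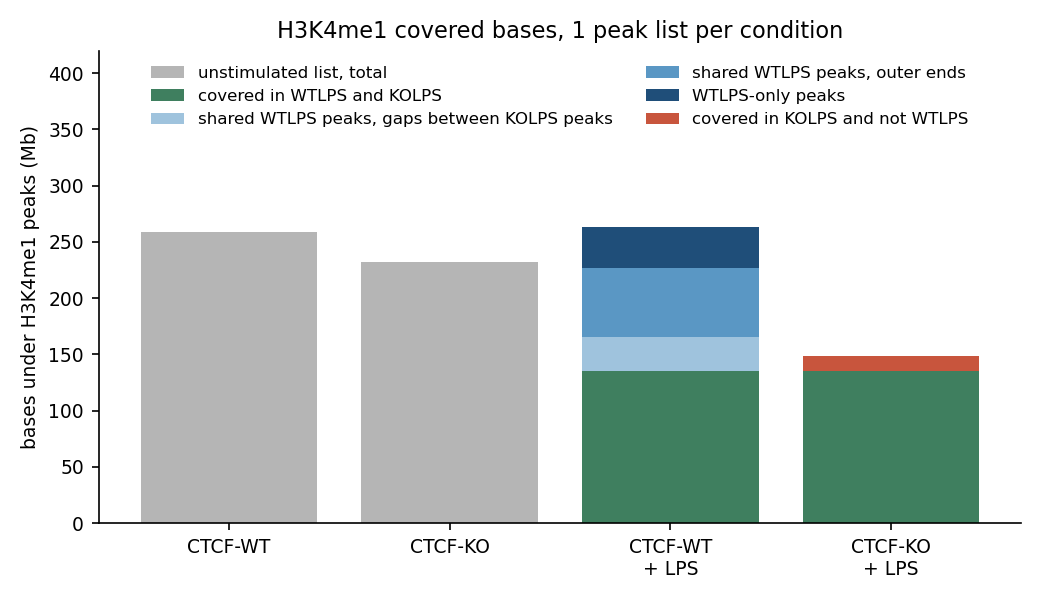
Bases under H3K4me1 peaks, in Mb, for the 4 conditions, with 1 list each and no error bars. The WTLPS bar of 263 Mb is split into 135 Mb covered in both lists (green), 30.2 and 61.6 Mb of shared peaks that KOLPS did not cover (light blues) and 35.9 Mb of WTLPS-only peaks (dark blue), and the KOLPS bar adds 13.3 Mb of its own (red).

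A WTLPS-only peak was found 37374 times, which is 41.6% of the WTLPS list (41.3 to 41.9%), and a KOLPS-only peak 8098 times, 10.2% of the KOLPS list (10.03 to 10.4%). In unstimulated cells the shares were nearer to each other, at 25.6% of WT peaks without a KO peak and 19% of KO peaks without a WT peak. With the same number of peaks in both lists the shares were 35.8% and 12.3%. With WTLPS reduced to its 22649 strongest peaks, which cover as many bases as KOLPS but were chosen by strength in one list only, their order turned: 5.78% of WTLPS and 55.6% of KOLPS peaks had no counterpart. Shared peaks numbered 52510 in WTLPS and 71022 in KOLPS, because 12388 of the former (23.6%) held more than 1 KOLPS peak, up to 17. Over shared WTLPS peaks the median share of bases covered in KOLPS was 56.3%. For the 40122 that met a single KOLPS peak, the median width was 2123 bp and the median covered by KOLPS was 966 bp. The reverse, a KOLPS peak that joined several WTLPS peaks, occurred 947 times. WTLPS-only peaks shared no base with a KOLPS peak by definition. Their median distance to the nearest KOLPS peak was 4484.5 bp, 8.08% lay within 1 kb of one and 27.6% lay over 10 kb away. No reference distance was computed, so these values do not tell whether such peaks were edges of kept domains.

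WTLPS peaks met in KOLPS were wider and stronger than those that were not. With an overlap of at least 1 bp, a wide peak meets another list more easily. No expected overlap was computed, so the part of this in the shares below was not tested. WTLPS-only peaks had a median width of 726 bp, a median fold of 2.35 and a median −log10 p of 3.01, against 2770 bp, 2.78 and 4.27 for shared WTLPS peaks. When the WTLPS peaks were ranked by width into 10 equal groups, 13.8% of the narrowest group (median 271 bp) and 99.7% of the widest (median 10033 bp) overlapped a KOLPS peak. Ranked by −log10 p, the shares ran from 15.2% to 97.8%. The share of bases was lower throughout, at 10.4% in the narrowest and 65.8% in the widest group, so even the widest domains, nearly all met in KOLPS, were covered only in part. KOLPS-only peaks were narrower still, with a median of 424 bp, and shared KOLPS peaks had a median of 1248 bp.

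**Figure D2:**
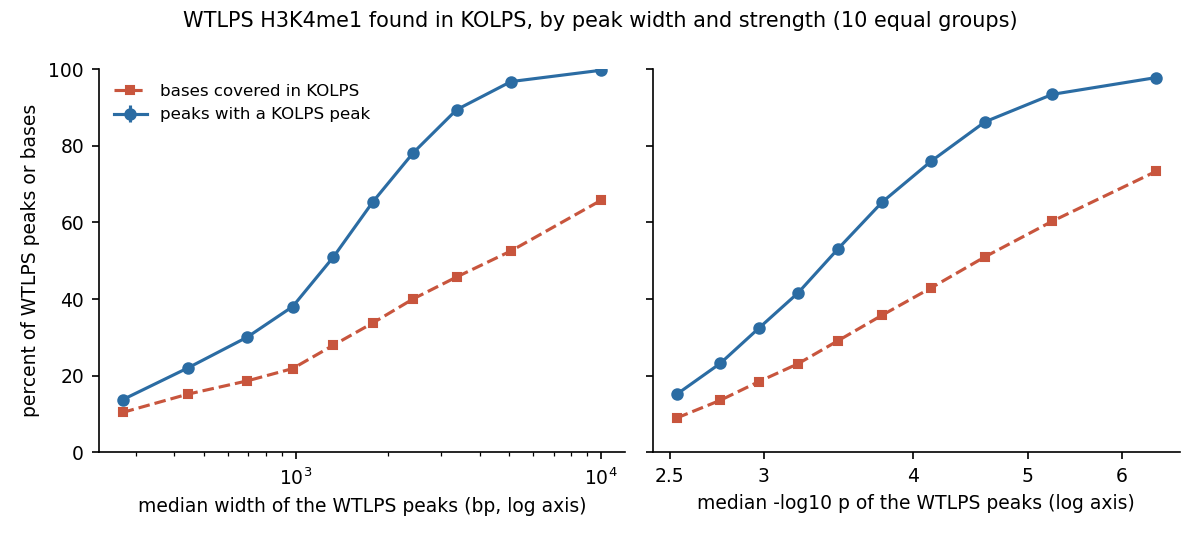
Percent of WTLPS H3K4me1 peaks that overlapped a KOLPS peak (blue circles, bars are 95% Wilson intervals, mostly smaller than the symbols) and percent of their bases covered in KOLPS (red squares), in 10 equal groups of about 8989 peaks ordered by width (left) or −log10 p (right), each drawn at the group's median on a log axis. Both curves go up with width and strength, from 13.8 to 99.7% of peaks and from 10.4 to 65.8% of bases by width.

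By location, 19.8% of WTLPS-only peaks touched a promoter (2.5 kb to either side of a gene's start), against 32.6% of shared WTLPS peaks, a difference of -12.8 percentage points (-13.4 to -12.2). WTLPS-only peaks lay in introns more often, at 40.3% against 28.0%, and outside genes at 29.3% against 24.0%, while exons took 10.6% and 15.4%. A wide peak touches a promoter more easily. When each peak was placed by its midpoint alone, 17.7% of WTLPS-only and 18.6% of shared WTLPS peaks lay in promoters, 47.2% and 48.4% in introns and 30.6% and 28.9% outside genes. KOLPS-only peaks were the most distal by midpoint, with 15.8% (15.1 to 16.6%) in promoters and 33.4% (32.4 to 34.5%) outside genes. The median distance of a peak's midpoint to the nearest protein-coding start site was 27 kb for WTLPS-only, 22.9 kb for shared WTLPS and 31.3 kb for KOLPS-only peaks, and over 100 kb for 17.6%, 16.0% and 21.7% of them.

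WTLPS H3K4me1 peaks with p65 had the smallest share without a KOLPS peak among the 6 other antibodies. Of the WTLPS-only H3K4me1 peaks 253 (0.677%) overlapped a WTLPS p65 peak, against 3741 (7.12%) of the shared WTLPS peaks, a difference of -6.45 points (-6.68 to -6.21). Put the other way, 6.33% of WTLPS H3K4me1 peaks with p65 had no KOLPS peak (5.62 to 7.13%), against 41.6% of all and 43.2% of those without p65. Where p65 and H3K27ac were both present the share was 4.35% of 3584 peaks, and where neither was it was 52.0% of 64356. The few WTLPS H3K4me1 peaks with p65 and no H3K27ac, 410 in number, had a share of 23.7% (19.8 to 28.0%). Peaks whose p65 was also listed in KOLPS lacked a KOLPS H3K4me1 peak in 1.81% of 1050 cases (1.16 to 2.81%), and peaks whose p65 was not, in 7.95% of 2944 (7.03 to 8.98%).

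Part of these differences came with peak width, since a wide peak has more room for another factor. Within the narrowest of 5 equal width groups, WTLPS-only and shared peaks held p65 at 0.190% and 0.342%, a difference of -0.15 points whose interval included 0 (-0.43 to 0.021). In the widest group, from 4068 bp, the shares were 3.72% of 323 WTLPS-only peaks and 16.2% of 17653 shared peaks, a difference of -12.5 points (-14.1 to -9.76). That group is open at the top. Its shared peaks reach 137567 bp and its WTLPS-only peaks 13724 bp, so widths were not matched within it. Within 500 bp of the peak's centre, p65 was found for 0.623% of WTLPS-only and 2.61% of shared WTLPS peaks. H3K27ac and SMC1 were lower in WTLPS-only peaks in each of the 5 width groups, by -4.71 to -35.1 points for H3K27ac and by -4.15 to -32.0 points for SMC1, with no interval reaching 0. The differences of -35.1 and -32.0 points are those of the widest group. Peak strength was not held equal in any of these groups.

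H3K27ac overlapped 10.2% of WTLPS-only and 40.5% of shared WTLPS peaks, and SMC1, the cohesin subunit, 8.5% and 34.9%. H3K4me3, the mark of active promoters, overlapped 10.8% and 27.4%. For CTCF the gap was narrower, at 9.33% and 21.4%, and within 500 bp of the peak's centre it was 8.84% (8.55 to 9.13%) against 9.54% (9.29 to 9.79%). Within each of the 5 width groups CTCF was lower in WTLPS-only peaks, by -3.62 to -12.7 points with no interval reaching 0. The difference of -12.7 points is that of the widest group. Peaks whose CTCF was listed in both conditions lacked KOLPS H3K4me1 in 17.9% of 3239 cases (16.6 to 19.2%), and those whose CTCF was listed in WTLPS alone in 25.3% of 11500 (24.5 to 26.1%). H3K27me3, the Polycomb mark of silenced genes, was the exception. It was found in 7.85% of WTLPS-only and 7.92% of shared WTLPS peaks, a difference of -0.073 points (-0.43 to 0.29), and at the centre it was more frequent in WTLPS-only peaks, at 7.79% (7.52 to 8.06%) against 4.76% (4.58 to 4.94%).

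**Figure D3:**
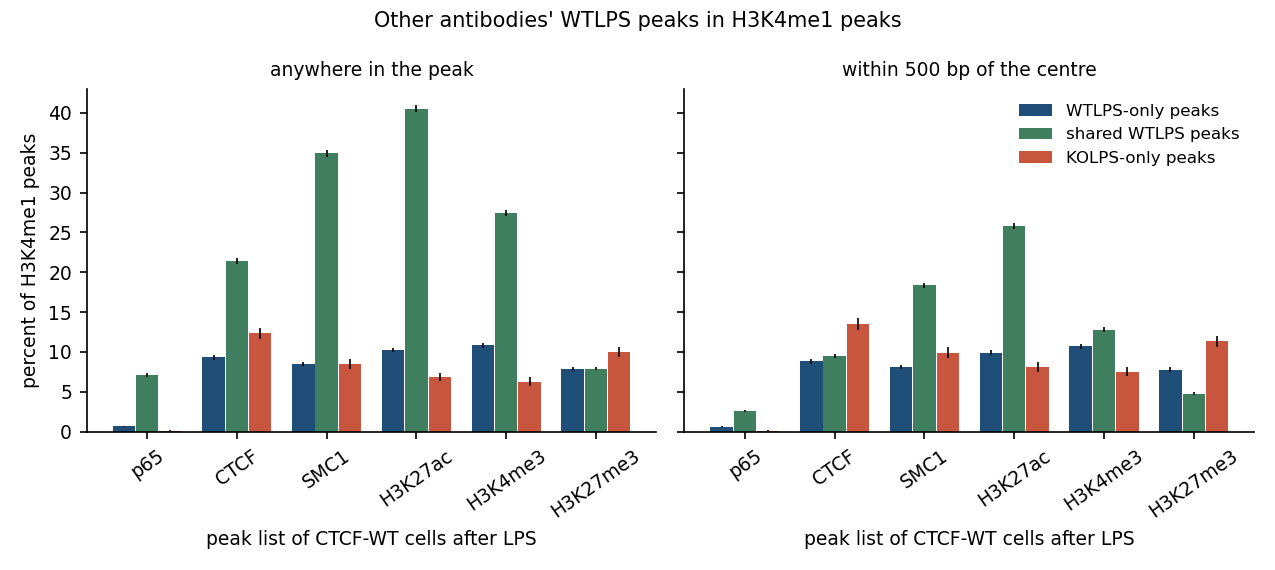
Percent of WTLPS-only (dark blue), shared WTLPS (green) and KOLPS-only (red) H3K4me1 peaks that overlapped a peak of 6 other antibodies in CTCF-WT cells after LPS, anywhere in the peak (left) or within 500 bp of its centre (right). Error bars are 95% Wilson intervals, and for CTCF the gap of 9.33 against 21.4% on the left becomes 8.84 against 9.54% on the right.

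KOLPS-only peaks seldom held activating features of either condition. p65 peaks of WTLPS overlapped 6 of the 8098 and p65 peaks of KOLPS 16 (0.198%, 0.122 to 0.321%). H3K27ac was found in 6.84% with the WTLPS list and 4.14% with the KOLPS list, and H3K4me3 in 6.26% and 6.89%. CTCF of WTLPS overlapped 12.3% (11.6 to 13.1%) of these narrow peaks, above the 9.33% of WTLPS-only peaks, and CTCF of KOLPS 4.17% (3.76 to 4.63%), against 1.64% (1.52 to 1.78%). H3K27me3 of WTLPS overlapped 9.98%.

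Shared WTLPS H3K4me1 peaks with another antibody's WTLPS peak held a KOLPS peak of it more often than WTLPS-only ones did. H3K27me3 differed, at 26.7% of 2933 WTLPS-only and 24.9% of 4159 shared peaks. The KOLPS peak could lie anywhere in the H3K4me1 peak, so the wider shared peaks had more room for one. The part of width in these shares was not tested. Of the WTLPS H3K4me1 peaks that held WTLPS H3K27ac, 34.9% of the WTLPS-only ones and 67.3% of the shared ones also held KOLPS H3K27ac. The same shares were 7.51% (of 253) and 27.6% for p65, 13.6% and 43.7% for SMC1 and 16.6% and 23.6% for CTCF. For H3K4me3 the shares were 83.6% and 86.5%, so in both classes most H3K4me1 peaks with WTLPS H3K4me3 also held KOLPS H3K4me3. The KOLPS lists of p65 (1752 peaks against 5465), CTCF (11576 against 54020) and SMC1 (17241 against 57354) were themselves far shorter than those of WTLPS.

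Counted by bases and not by peaks, KOLPS covered 74.6% of the WTLPS H3K4me1 bases inside WTLPS p65 peaks, 72.8% of those inside H3K27ac peaks and 72.7% of those inside SMC1 peaks. It covered 56.0% of those inside H3K4me3 peaks, 55.8% inside CTCF peaks and 51.3% in promoters, near the 51.4% of all WTLPS H3K4me1 bases, and 38.7% inside H3K27me3 peaks. These are shares of bases in 1 pair of lists, and neighbouring bases are not independent.

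The same order was seen from the sites of the other factors. An H3K4me1 peak lay within 1 kb of 94.4% of the 5465 WTLPS p65 summits in WT, 95.2% in WTLPS, 94.0% in KO and 86.6% (85.7 to 87.5%) in KOLPS. These p65 sites were chosen in CTCF-WT cells. At the 1752 p65 summits of KOLPS the shares were 91.8%, 91.8%, 93.5% and 86.2% (84.5 to 87.7%), also lowest in KOLPS. Of the 54020 CTCF summits of WTLPS fewer had H3K4me1 at all, 38.5%, 38.4%, 37.5% and 28.1% (27.7 to 28.5%). At H3K27ac summits of WTLPS the shares were 86.8%, 87.2%, 84.5% and 73.2% (72.9 to 73.6%), and at those of H3K4me3 74.7%, 76.1%, 73.5% and 56.9% (56.3 to 57.6%). KOLPS was thus the lowest list at each of these sites, with KO between it and WTLPS at the sites of WTLPS.

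Profiles around these summits were lower in KOLPS at every point given. At the p65 summit 88.3% of positions lay under a WTLPS and 66.1% under a KOLPS H3K4me1 peak. At 10 kb on either side the values were 43.6 and 44.4% in WTLPS and 25.5 and 26.6% in KOLPS. At CTCF summits WTLPS gave 24.2% and KOLPS 16.3%, against 21.1% and 12% at 10 kb downstream. At H3K27ac summits they gave 69.5% and 50.2%. Among WTLPS p65 sites, 92.0% of the 1242 with a KOLPS p65 peak had KOLPS H3K4me1 within 1 kb (90.4 to 93.4%), and 85.0% of the 4223 without one (83.9 to 86.0%). The same groups had 97% and 94.7% in WTLPS.

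**Figure D4:**
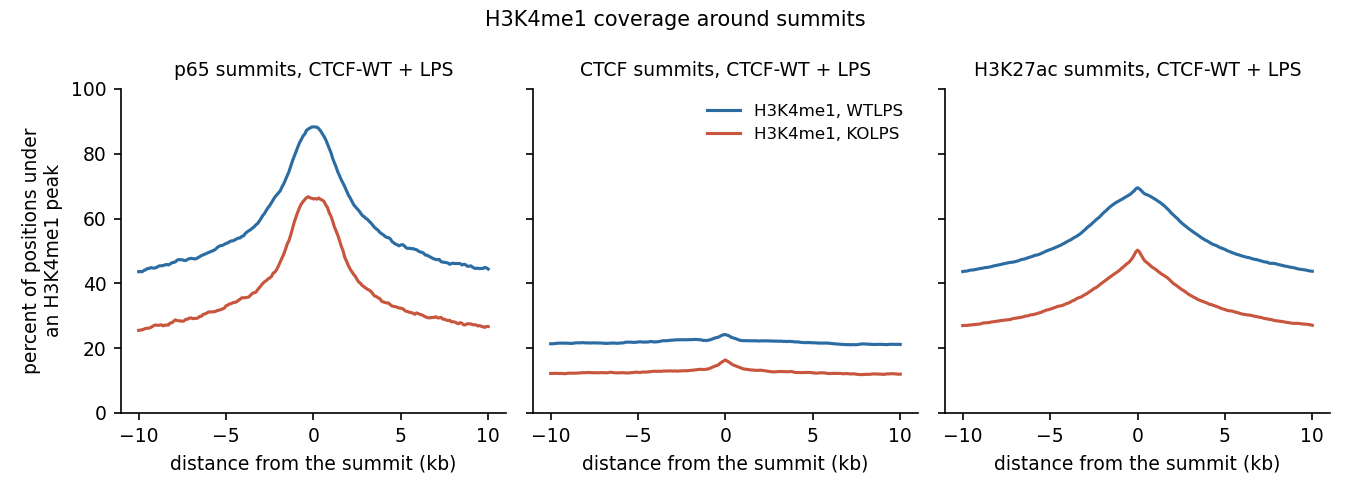
Percent of positions under an H3K4me1 peak of WTLPS (blue) or KOLPS (red), against the distance from p65, CTCF or H3K27ac summits of CTCF-WT cells after LPS, in steps of 100 bp out to 10 kb, with 1 list each and no error bars. Both lists peak at p65 and H3K27ac summits, at 88.3 and 66.1% and at 69.5 and 50.2%, and at CTCF summits the WTLPS curve goes from 24.2% to 21.1% over 10 kb.

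Unstimulated lists showed which of these regions were marked before LPS. Shared WTLPS peaks were almost always present, in WT at 95.9% and in KO at 95.2%. WTLPS-only peaks were present in WT at 61.7% (61.2 to 62.2%) and in KO at 49.1% (48.6 to 49.6%). KOLPS-only peaks had the opposite order, 38.6% (37.5 to 39.6%) in WT and 48.9% (47.8 to 49.98%) in KO. The largest group of WTLPS-only peaks, 14449 or 38.7%, was listed in both WT and KO and therefore missing from KOLPS alone of the 4 lists. A further 10407 (27.8%) were in neither, so were listed after LPS in CTCF-WT cells only, 8604 (23.0%) were in WT and not KO, and 3914 (10.5%) were in KO and not WT.

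The 14449 peaks missing from KOLPS alone were wider than the rest, with a median of 1132 bp, and held WTLPS H3K27ac at 15.0% and p65 at 1.17%. The 10407 listed in WTLPS alone were narrow, with a median of 432 bp, and held H3K27ac at 5.48% and p65 at 0.192%. Of the KOLPS-only peaks 2952 (36.5%) were in neither unstimulated list, with a median width of 341 bp, and 2024 (24.99%) were in KO and not WT, thus in both CTCF-KO lists and neither CTCF-WT list. The latter held KOLPS CTCF at 7.86% and H3K27me3 at 6.37%.

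Chromosome X stood apart. Its KOLPS to WTLPS ratio of covered bases was 0.354 (4.32 Mb in WTLPS and 1.53 Mb in KOLPS), while the 19 autosomes lay between 0.537 and 0.587. WTLPS-only peaks made up 59.3% of the WTLPS peaks on X and 39.4 to 45.1% on the autosomes. Before LPS the KO to WT ratio was 0.776 on X and 0.873 to 0.923 on the autosomes. On chromosome Y there were 4 WTLPS peaks and no KOLPS peak, while unstimulated WT and KO covered 0.0148 and 0.00455 Mb there. The labels do not give the sex of the donor mice. The study states that males and females were used, with sex-matched wild-type controls. The part of sex in these values was not tested.

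Around genes, H3K4me1 was counted as the bases under peaks within 50 kb of the start site, a window of the same length for each gene, and compared as log2((KOLPS + 500)/(WTLPS + 500)), which understates the change of sparsely covered genes. Over all 21938 protein-coding genes the median was -0.77, and medians of covered length were 13.2 kb in WT, 13.6 kb in WTLPS, 11.4 kb in KO and 6.07 kb in KOLPS. For KO against WT the median log2 ratio was -0.08. Among 14525 genes with a mean of at least 5 kb over the 4 lists, 40.8% had a log2 ratio at or below -1 and 1.14% a ratio above 0, with a median of -0.89. The 4252 of these genes with a WTLPS p65 summit in the window had a median of -0.80 and 31.7% at or below -1, and the 10273 without one -0.93 and 44.6%. These windows overlap between neighbouring genes, the lists of genes below were chosen with results of these data known, and with 1 list per condition their counts have no test. With WTLPS reduced to the covered bases of KOLPS, the median over all genes was 0, and the medians of 10 of the 18 lists, all below 0 in the full lists, were above 0, among them those of the LPS-induced enzymes (0.19), interferon-stimulated genes (0.45) and neutrophil genes (1.79). The directions given for lists below hold for the full lists.

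For the cytokine and chemokine genes that LPS induces, the position against all genes depended on the setting. All 20 measured genes passed the 5 kb filter, and 3 of them (15%) lay at or below -1, against 40.8% of all such genes. Their median log2 ratio was -0.67, against -0.77 for all genes and -0.89 for those past the filter. Within 10 kb of the start site the list lay at -0.45, as did all genes, and with both lists at the same covered bases it lay below them, at -0.27 against 0. Il6 had 39.8, 31.4, 35.5 and 26.4 kb in WT, WTLPS, KO and KOLPS, a log2 ratio of -0.25 between the lists after LPS. H3K27ac in the same window went from 45.2 kb in WTLPS to 15.5 kb in KOLPS, and p65 summits from 4 to 1. Il12a, which encodes a subunit of interleukin 12, had 35.4, 36.4, 27.4 and 13.8 kb (log2 -1.36), and Il12b, which encodes the other subunit, 68.4, 63.0, 47.0 and 39.5 kb (log2 -0.67). Il10, an anti-inflammatory cytokine, had 37.8, 38.4, 30.1 and 16.3 kb (log2 -1.21), and Cxcl3, a neutrophil attractant, 43.9, 44.7, 33.9 and 21 kb (log2 -1.07). Il1b (73.1 and 43.9 kb in WTLPS and KOLPS), Tnf (52.6 and 30.1 kb) and Ccl5 (55.3 and 45.4 kb) were covered less in KOLPS by log2 -0.73, -0.80 and -0.28. KOLPS was thus below WTLPS at all 8 of these genes, by unequal amounts.

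Genes of the LPS signal itself had medians near the -0.77 of all genes within 50 kb of the start site. Of all genes past the 5 kb filter, 40.8% were at or below -1. Within 10 kb the medians lay below the -0.45 of all genes, which include genes with no peak in the window. They were -0.82 for the TLR4 genes, -0.81 for NF-κB, -0.83 for AP-1, -0.88 for interferon-stimulated genes and -0.60 for the LPS-induced enzymes. Most other lists also lay below -0.45 there, such as the neutrophil genes (-1.10) and the ribosomal and housekeeping genes (-1.07). Only the cytokine and chemokine, mast cell and basophil, and silent gene lists did not, so this position was not particular to the LPS signal. Of 13 genes of the TLR4 receptor and its adaptors 5 (38.5%) were at or below -1, with a median of -0.84. Tlr4, the receptor, had 70.8, 71.8, 58.3 and 51.3 kb in the 4 lists, and Irak2, a kinase that sustains the signal, 77.9, 74.4, 68.0 and 55.8 kb. Irak1, the kinase upstream, which lies on chromosome X, had 23.6, 22.5, 16.0 and 7.03 kb (log2 -1.61). Of 12 NF-κB subunits and feedback inhibitors 5 (41.7%) were at or below -1, with a median of -0.74. Rela, the gene of p65, had 25.1 kb in WTLPS and 8.99 kb in KOLPS, Relb 21.7 and 6.46 kb, Nfkbia, which encodes the inhibitor IκBα, 44.5 and 27.3 kb, and Tnfaip3, which encodes the deubiquitinase A20, 55.2 and 38.6 kb. For the 10 AP-1 genes 3 were at or below -1 (median -0.85), and for 15 interferon-stimulated genes 5 (median -0.82), from Ifit2 at -0.29 to Irf7 at -1.70. Of 8 enzymes induced by LPS 1 was at or below -1 (median -0.72), Ptges, the prostaglandin E synthase gene, with 23.1 kb in WTLPS and 6.64 kb in KOLPS.

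Of 15 transcription factors of the myeloid and dendritic lineages, all past the 5 kb filter, 8 (53.3%) were at or below -1, against 40.8% of all such genes. Their median was -1.01, against -0.77 for all genes and -0.89 for those past the filter. Within 100 kb of the start site the list and all genes both lay at -0.83. Irf8, required for several dendritic and monocyte lineages, had 58.1, 63.0, 47.2 and 25 kb in WT, WTLPS, KO and KOLPS (log2 -1.32). Cebpa, which directs myeloid commitment, had 55.4, 58.3, 34.1 and 18.9 kb (log2 -1.60). Zbtb46, which marks conventional dendritic cells, had 71.0, 67.9, 49.8 and 25.2 kb (log2 -1.41). For each of these 3 genes KO was already below WT and KOLPS was the lowest list. Klf4 had 19.3 kb in WTLPS and 5.38 kb in KOLPS (log2 -1.75), Id2 20.3 and 8.82 kb (-1.16) and Cebpb 46.5 and 19.2 kb (-1.25). By contrast Batf3 had 63.9 and 48.8 kb (-0.39), Runx1 72.7 and 53.7 kb (-0.43), Bcl6 43.5 and 31.7 kb (-0.45) and Spi1, the gene of PU.1, 44.5 and 28.6 kb (-0.63).

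**Figure D5:**
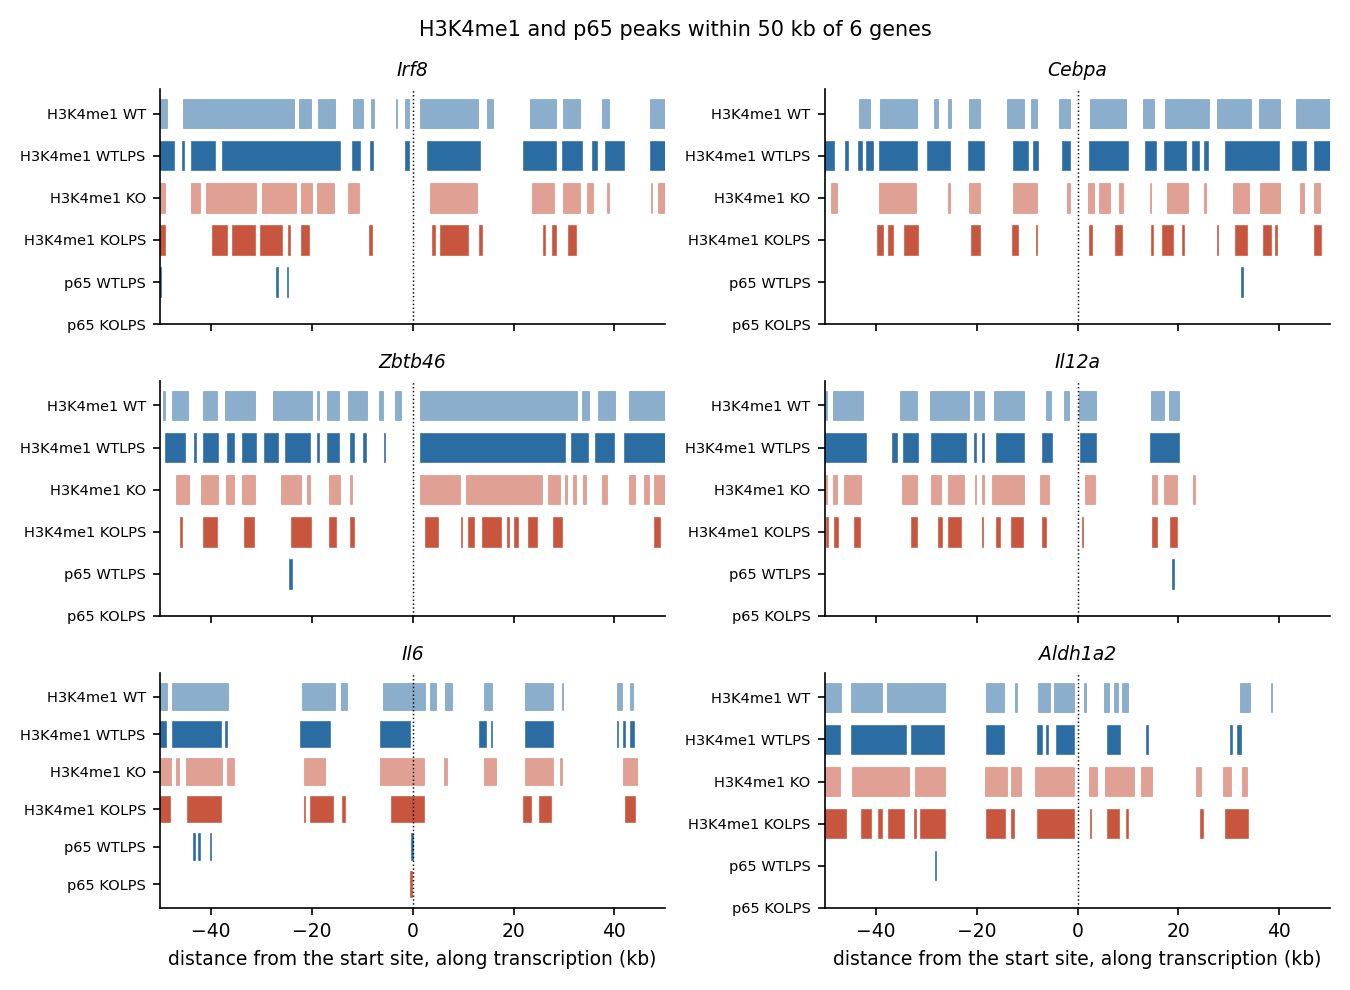
H3K4me1 peaks in the 4 lists and p65 peaks after LPS (CTCF-WT blue, CTCF-KO red, unstimulated lists paler) within 50 kb of the start sites of 6 genes, drawn along the direction of transcription, with the dotted line at the start site. KOLPS H3K4me1 covered 25 kb at Irf8, 18.9 kb at Cebpa and 25.2 kb at Zbtb46, the least of the 4 lists at each. At Aldh1a2 it covered 35.7 kb, against 32.9 kb in WTLPS. No KOLPS p65 peak was listed in these windows other than at Il6.

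Genes of antigen presentation and costimulation had a median of -0.62, and 3 of 11 (27.3%) lay at or below -1, against 40.8% of all genes past the filter. Their median was above the -0.77 of all genes within 50 kb. Within 10 kb it was below that of all genes, at -0.68 against -0.45, as were the medians of most lists. The MHC class II gene H2-Ab1 had 44.9, 47.0, 49.6 and 37.1 kb (log2 -0.34), and Cd274, which encodes PD-L1, 67.9, 67.6, 72.7 and 55.5 kb (-0.28). The costimulatory gene Cd80 had 62.4, 57.9, 50.7 and 25 kb (-1.20), and Cd86 78.3, 77.8, 69.7 and 50.5 kb (-0.62). Among 7 growth factor receptor genes past the filter of 8 measured, only Csf3r (35.4 and 17.1 kb, log2 -1.03) was at or below -1. Among the 9 dendritic and myeloid markers the spread was wide, from Ptprc, the gene of the leukocyte antigen CD45, with 62.9, 64.9, 62.5 and 59.3 kb (log2 -0.13), to Tyrobp, the gene of the adaptor DAP12, with 27.3, 33.5, 26.8 and 5.86 kb (log2 -2.42). Itgax, the gene of CD11c, on which the cells were selected, had 60.4, 59.5, 42.2 and 28.8 kb (-1.04).

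Gene groups that are not part of the LPS response lay on both sides of all genes. Of all genes past the filter 40.8% were at or below -1, and the median over all genes was -0.77. Of 15 ribosomal and housekeeping genes past the filter, of 16, 9 (60%) were at or below -1, with a median over all 16 of -1.16. Of 10 neutrophil genes 7 were (median -1.21), of 9 T cell genes past the filter 7 (median over all 10 of -1.04), of 7 B cell genes 3 (over all 9, -0.89), of 7 erythroid and megakaryocyte genes 4 (over all 9, -1.02), of 3 mast cell and basophil genes 2 (over all 7, -0.41), and of 3 silent genes 1 (over all 12, -0.26). Of the loci that the study displays, which it chose with its own results known, 2 of 10 were at or below -1 (median -0.46), and 1 was higher in KOLPS: Aldh1a2, the gene of an enzyme of retinoic acid synthesis, with 36.5, 32.9, 47.3 and 35.7 kb (log2 0.12).

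The largest differences around single genes were lower in KOLPS. From WTLPS to KOLPS, Mid1 on chromosome X went from 73.7 to 12.4 kb, with 77.1 kb in WT and 38.3 kb in KO. Cdh1, the gene of E-cadherin, went from 72.2 to 28.8 kb, Zbtb46 by 42.7 kb as above, and Notch1, the gene of a receptor in dendritic cell differentiation, from 58.1 to 15.5 kb. Prex1, which encodes a Rac exchange factor, went from 77.7 to 36.8 kb, Pik3cb, a phosphoinositide kinase gene, from 76.1 to 36.2 kb, and Dnmt3a, a DNA methyltransferase gene, from 60.4 to 23.2 kb. Cebpa, Irf8 and Lipt2 (60.8 to 23.7 kb) completed the 10. These genes were ranked by this difference, so their values describe the extremes and carry no test.

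The largest increases were smaller by far, from 4.33 to 8.38 kb. Tdpoz3 had 0 kb in WT and WTLPS, 4.34 kb in KO and 8.38 kb in KOLPS, and Agbl4, the gene of a carboxypeptidase, 0, 0, 12.1 and 6.30 kb, so both were listed in CTCF-KO cells alone. Trim43c had 3.62, 4.21, 21.5 and 11.7 kb and Hook1, which encodes a microtubule linker, 14.5, 14.2, 31.6 and 19.9 kb. Csgalnact1 (4.19, 2.82, 14.5 and 7.15 kb), A730009L09Rik (0.805, 0.441, 7.42 and 5.04 kb) and Eed, the gene of a Polycomb subunit (40.4, 39.9, 57.2 and 44.8 kb), were also highest in KO. Bicd1 (8.33 kb in WTLPS and 15.0 kb in KOLPS), Gm10722 (13.2 and 19.5 kb) and Mrgpra6 (1.73 and 7.44 kb) were, like Tdpoz3, highest in KOLPS.

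The strongest WTLPS-only peak, chr6:131376929-131377596, lay in an intron 11.2 kb from the start of Ybx3, which encodes a cold-shock domain protein, with a fold of 5.23 and a −log10 q of 16.6, and no other of the 18 lists used held a peak there. The next, by −log10 q, was a 307 bp peak in an intron 127 kb from Adam10, a metalloprotease gene. Both Y peaks among the first 8 lay near Gm21860, and the others near Amotl2, Kcnip2, Ezr and Gm15319. The widest WTLPS-only peaks, 10348 to 13724 bp, were nearest to Gm47283 on chromosome Y, Gpr34 on X, AF067061, Vgll4 and Vgll3. Of these 5, 4 overlapped a KO peak and all 5 a WT peak.

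Among KOLPS-only peaks, 6 of the 8 with the highest −log10 q and the 3 widest lay in 1 region of chromosome 12. That region, chr12:113572927-116010093, spans 183 annotated immunoglobulin heavy chain variable (Ighv) genes and pseudogenes. H3K4me1 covered 334 kb of it in WT, 341 kb in WTLPS, 480 kb in KO and 417 kb in KOLPS, and 81 of the 8098 KOLPS-only peaks (119.8 kb) lay there. One of them, chr12:115062778-115070349, was 7572 bp wide with a fold of 6.01. The other antibodies also had more peaks there in CTCF-KO cells: H3K27ac peaks numbered 7 and 8 in WT and WTLPS and 97 and 110 in KO and KOLPS, p65 peaks 1 in WTLPS and 64 in KOLPS, H3K4me3 peaks 2 and 41, SMC1 peaks 77 and 276, and CTCF peaks 138 and 253. CTCF peaks there covered fewer bases in KOLPS all the same, 153 kb against 160.4 kb. Antibodies to unlike targets thus had more peaks in the CTCF-KO lists in this region, and the reason was not tested. The KOLPS-only peak of highest −log10 q (389), chr9:35305289-35305567, was 279 bp wide with a fold of only 2.25, and 15 of the 18 lists held a peak there. A 216 bp peak in an intron 34.7 kb from Cdk2ap1 was among the first 8, and the remaining wide ones, 7436 and 5789 bp, lay in introns 119 and 63.1 kb from the start of Agbl4.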

How the data were processed

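H3K4me1 ChIP-seq was analysed from broad peak lists, with 1 list for each of 4 conditions, and from the lists of 6 other antibodies in CTCF-WT and CTCF-KO cells after LPS, with H3K27ac also before LPS. Tagmented libraries gave paired reads. The authors trimmed reads, aligned them to mm10, removed duplicates and called peaks with MACS2. The submitters' processing notes name BWA 0.7.12, Picard 1.77, MACS2 2.1.2 and deepTools 3.1.3. The study used several biological replicates for each condition, called peaks for each sample and replicate, and also merged replicates and processed them again. Which of these calls a deposited list holds, and the settings of the broad calls, are not given in the sources used here. The peak names in the H3K4me1 lists carry another supplier's mark than the antibody in the labels. The authors deposited for each peak a fold, the ratio of fragment pileup over local background. The deposited fold, −log10 p-value and −log10 q-value of broad lists are averages over the peak. These values were used only to rank and filter peaks within a list, except the background coverage. That was the most frequent level among peaks with −log10 p under 25 whose fold and −log10 p came from a whole number of up to 200 fragments within 0.002. It rises with fragment number and length and is not a read count.

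Peaks were compared in Python 3.11.15 with numpy 2.4.6 and scipy 1.17.1, and sequences were read with samtools 1.23.1. Interval steps were tested on simulated data. No H3K4me1 peak ended beyond a chromosome of GRCm38. Promoters were 2.5 kb up- and downstream of gene starts (55413 GENCODE genes, longest transcript), followed in order by exons, introns and the space outside genes. The genes Cxcl11, Mx2 and Clec7a are not annotated as protein-coding and were not measured, so 204 of 207 entries in 18 lists were. Named genes were those of the lists, the 10 with the largest fall and the 10 with the largest increase in covered bases (starts at least 200 kb apart), and the nearest genes of the 8 strongest and 5 widest WTLPS-only and KOLPS-only peaks. The members, the lists and the comparisons were chosen with earlier results of these data known. Alternatives were other thresholds, list sizes, overlaps, windows, promoters and chromosomes.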

Additional observations from a re-analysis of the deposited data

How the results depend on the processing

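With both lists at the same covered bases, the order of the WTLPS-only and KOLPS-only shares turned and the medians of 10 of 18 gene lists were above 0. No other alternative changed the sign of the median over all genes. The promoter, p65, CTCF and H3K27ac differences between WTLPS-only and shared peaks kept their sign in each alternative tried for them. They were not computed at the same covered bases, the same number of peaks or the common minimum −log10 p. The position of several gene lists against all genes did change sides with the setting, and within 10 kb the medians of 2 lists were at 0. Each condition had 1 list, and no error between replicates was available. No paired analysis was possible because each condition had 1 list and no result came from a test. The lists hold no read counts, and the study's read totals were lowest for KOLPS.

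With peaks of −log10 p of at least 5, the KOLPS to WTLPS ratio was 0.411 for peak counts and 0.193 for covered bases, the Jaccard index (bases in both over bases in either) was 0.165, and the shares without a peak in the other list were 73.8% for WTLPS and 29.8% for KOLPS. The promoter, CTCF and H3K27ac differences between WTLPS-only and shared peaks were then -9.18, -10.4 and -16.1 points. The shares were 37.8% and 11.4% with a common minimum −log10 p, 35.8% and 12.3% with the same number of peaks, and 66.3% and 16.1% when a peak had to be covered to at least 50%. WTLPS gave 40.6% with peaks within 1 kb merged and 41.1% without chromosomes X and Y. When the WTLPS list was cut to its strongest peaks so that both lists covered the same bases, an alternative chosen after seeing the data, 5.78% of WTLPS peaks and 55.6% of KOLPS peaks had no counterpart, and the median log2 ratio around genes was 0. The median was -0.45 within 10 kb of the start site and -0.89 for genes of at least 5 kb, the latter also chosen after seeing the data.

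The promoter difference was -10.7 points for promoters of 1 kb and -0.91 by the peak's centre, which was added after seeing the data. The p65 difference was -7.13 with at least 50% covered, -1.98 within 500 bp of the centre, -5.80 outside promoters and -3.64 with the stronger p65 peaks. The CTCF difference was -0.70 at the centre, -9.09 outside promoters and -6.61 with the stronger CTCF peaks. The H3K27ac difference was -28.1, -15.9, -24.4 and -23.8 points in the same 4 settings as for p65. With at least 50% covered, presence in WT and KO was 43.9% and 31.2% for WTLPS-only, 87.2% and 81.7% for shared WTLPS and 26.8% and 37.2% for KOLPS-only peaks.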
